A study of Mus musculus with 5 samples.

Results

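Transcription past the annotated gene end was measured at 7437 of 16498 mouse protein-coding genes of at least 5000 bp. These genes had no other annotated gene, on either strand, within 10 kb past the end of their longest transcript, and the other 9061 genes had one. No measured value entered this choice. Their median length was 32.3 kb. The study mapped engaged RNA polymerase by global run-on sequencing (GRO-seq), in which engaged polymerases in isolated nuclei add a brominated nucleotide to their transcripts and the labelled RNA is pulled down for sequencing. It compared mouse embryonic stem cells (MESC, 3 samples) with mouse embryonic fibroblasts (MEF, 2 samples). The MESC were the line V6.5, from a cross of C57Bl/6(f) and 129/Sv(m), at passages 12 to 14, kept with LIF on irradiated feeder cells. The MEF came from male embryos of the same cross at E13.5, at passage 2, and were kept without LIF. The authors' files pool the samples of a cell type, so each cell type is 1 library with no spread between replicates, and no test between the cell types was possible.

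RNA polymerase II does not stop where the mature messenger RNA ends. A polyadenylation signal in the nascent RNA, most often the hexamer AATAAA or ATTAAA, is bound by the cleavage and polyadenylation complex, which cuts the transcript and adds the poly(A) tail. The polymerase goes on past the cut, and in the torpedo model the exonuclease Xrn2 degrades the uncapped RNA behind it until it is released. Run-on reads past a gene end report polymerase in this stretch, whose RNA is short-lived and hardly seen in messenger RNA.

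The annotated ends differ in sequence, and those of 7 genes described below are shown to place the measurements. Each line gives the last 30 bases of the gene followed by the first 30 past it on the gene's strand, from the NCBIM37 (mm9) assembly, and capitals mark the polyadenylation hexamer.
Thbs1 (chr2:117952840-117952899, + strand): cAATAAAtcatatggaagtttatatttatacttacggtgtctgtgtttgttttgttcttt
Hmga2 (chr10:119798301-119798360, - strand): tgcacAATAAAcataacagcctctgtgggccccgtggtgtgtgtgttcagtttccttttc
Yap1 (chr9:7931969-7932028, - strand): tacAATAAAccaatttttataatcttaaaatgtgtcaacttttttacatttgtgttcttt
Actn1 (chr12:81268499-81268558, - strand): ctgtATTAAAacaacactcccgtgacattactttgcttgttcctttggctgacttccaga
Fosl2 (chr5:32460175-32460234, + strand): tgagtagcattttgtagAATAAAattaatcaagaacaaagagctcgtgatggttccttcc
Klf6 (chr13:5869610-5869669, + strand): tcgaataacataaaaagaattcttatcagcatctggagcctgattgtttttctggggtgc
Trim71 (chr9:114420363-114420422, - strand): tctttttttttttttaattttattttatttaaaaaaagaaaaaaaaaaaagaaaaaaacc
In Thbs1, Hmga2, Yap1 and Actn1 the hexamer ended 19 to 23 bases before the annotated end, and in Fosl2 it ended 7 bases before it. No match to either hexamer was found in the last 40 bases of Klf6 and Trim71. Searched on the gene's own strand, AATAAA was found in the last 40 bases of 4172 of the 7437 genes (56.1%, against 57.2% of all 16498 coding ends). ATTAAA without AATAAA was found in 986 (13.3%, against 13.1%), and neither in 2279 (30.6%, against 29.7%). Genes with isolated ends therefore held the hexamers at nearly the same share as all coding genes.

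The MESC library held 8616592 aligned reads and the MEF library 6583644. Reads were counted by their 5′ end on the gene's strand. The body ran from 1000 bp after the transcription start to the annotated end, and the past-end ratio is reads per kb past the end over reads per kb of body in the same library. A ratio of 1 means as many reads per kb past the end as within the gene. A gene entered with at least 100 body reads, which 3274 of the 7437 genes reached in MESC, 2822 in MEF and 2554 in both. At least 1 body read was present in 6587 and 6210 genes. The first 10 kb past the 7437 ends held 405588 sense reads in MESC (4.73% of reads outside the mitochondrial genome) and 346438 in MEF (5.27%). On the opposite strand the same stretches held 60175 and 37419 reads. The intergenic level, more than 10 kb from any gene, on each strand was 0.187 reads per kb in MESC and 0.110 in MEF. All intervals are 95% intervals, exact for single genes and shares, from order statistics for medians over genes, and on the log scale for the ratio of 2 ratios. They cover counting error, or for medians the spread over genes, and not differences between cultures, and without molecular identifiers several reads can come from 1 molecule.

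The libraries matched their labels at the marker genes. All 8 ES cell markers had higher body density in MESC, with a summed RPKM (reads per kb, scaled to library size) of 46.8 against 0.339, and 3 of them held no body read in MEF. All 8 fibroblast markers were higher in MEF, 87.5 against 4.48, and none of them was at 0 in MESC, whose cultures held feeder cells. The 4 macrophage and blood markers placed were summed at 0.0725 in MESC and 0.703 in MEF, the 3 endothelial markers at 0.302 and 0.167, and the 3 neural markers at 1.33 and 1.21. Their part in the results below was not tested, and fewer cells of a type and less RNA per cell cannot be told apart.

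Polymerase was denser just past the gene end than within the gene, in both cell types. Over the first 2 kb the median ratio was 1.75 (1.69 to 1.80) in MESC and 1.67 (1.63 to 1.72) in MEF. The first 2 kb exceeded the body in 2570 genes in MESC (78.5%) and in 2153 in MEF (76.3%). The last 2 kb before the end were close to the body, at medians of 1.11 (1.09 to 1.13) and 1.01 (0.982 to 1.04). From 2 to 5 kb past the end the medians were 1.04 (1.01 to 1.09) in MESC and 1.54 (1.5 to 1.60) in MEF. From 5 to 10 kb they were 0.267 (0.246 to 0.291) and 0.521 (0.485 to 0.571). Over the full 10 kb the median ratio was 0.983 (0.959 to 1.01) in MESC and 1.24 (1.21 to 1.28) in MEF. From the 10th to the 90th percentile of genes it ran from 0.323 to 1.86 in MESC and from 0.489 to 2.27 in MEF.

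In bins of 500 bp, over the 2554 genes measured in both libraries, the median density climbed toward and past the annotated end. In MESC it was 0.902 in the bin that began 2000 bp before the end, and it went from 1.05 in the last 500 bp of the gene to 1.33 in the first bin past it. It was highest at 1000 to 1500 bp, at 1.68 (1.58 to 1.77), and nearly as high in the bin before it, at 1.67 (1.59 to 1.77). The MEF median went from 0.865 to 1.14 across the end and was highest at 1500 to 2000 bp, at 1.60 (1.53 to 1.70). The decline came earlier in MESC. Its median was under the body density from 3000 bp on, under 0.5 of it from 4500 bp and under 0.25 of it from 6000 bp. The MEF median passed the same levels at 4000, 6000 and 7000 bp. Summed over the genes, so that highly transcribed genes weigh most, the maxima were 2.30 at 500 to 1000 bp in MESC and 2.17 at 1500 to 2000 bp in MEF.

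**Figure D1:**
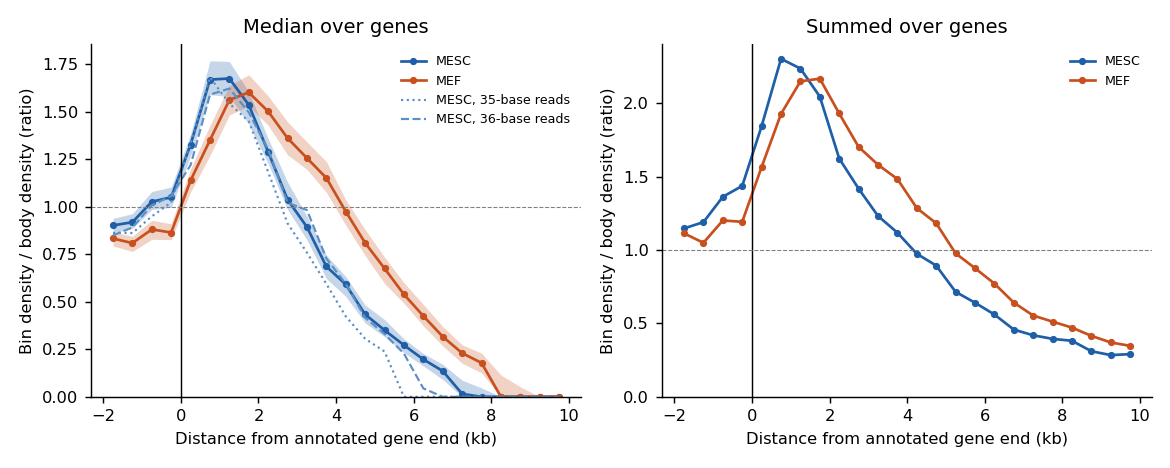
Density relative to the gene body (vertical axis) in 500-bp bins from 2 kb before to 10 kb past the annotated end (horizontal axis, kb) for the 2554 genes measured in both libraries, as the median over genes with 95% bands (left, with thin lines for the MESC reads of 35 and 36 bases over 2199 genes) and as the sum over genes (right). Both medians climb past the end, to 1.68 in MESC and 1.6 in MEF, and the MEF median goes under the body density at 4000 bp, after the MESC median at 3000 bp.

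A gene was called denser past its end when its first 2 kb held at least 2 times the body density and the exact interval lay above 1. This held for 1319 of 3274 genes in MESC (40.3%, 38.6 to 42.0), against a background of 42.9% over all coding genes tested. In MEF it held for 1040 of 2822 (36.9%, 35.1 to 38.7), against a background of 40.0%. The genes with isolated ends were thus near the share of all genes and slightly below it. At least 2-fold sparser first 2 kb were called in 172 genes in MESC (5.25%, against 6.31% over all genes) and in 121 in MEF (4.29%, against 5.13%). Among the genes measured in both libraries, 736 were called denser in both, which is 69.3% of the 1062 called in MESC and 76.4% of the 963 called in MEF. The same overlap over all coding genes is not given here. Reads above the intergenic level were still present 8 to 10 kb past the end in 1410 genes in MESC (43.1%, 41.4 to 44.8, against 51.8% over all genes). In MEF this was the case for 1619 genes (57.4%, 55.5 to 59.2, against 62.3%). The background genes can have a neighbour in that window, so their share includes reads of neighbouring genes. The cut-off followed the intergenic level of each library, 0.187 reads per kb in MESC and 0.110 in MEF. Fewer reads were thus enough for this call in MEF, and the shares of the libraries do not rest on the same cut-off.

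The isolation limit itself bears on the distal values. In the 595 genes whose next gene began 10 to 12 kb past the end, the median ratio at 8 to 10 kb was 0.115 in MESC (282 genes tested) and 0.205 in MEF (225 tested). In the 789 genes just outside the limit, with the next gene at 8 to 10 kb, it was 0.286 (395 tested) and 0.388 (346 tested). The next gene of these lies in the measured window, so its own reads can be included. Over all genes with isolated ends tested, the median at 8 to 10 kb was 0.117 in MESC and 0.213 in MEF. At the length limit, the genes under 5500 bp had median 10-kb ratios of 0.505 in MESC (6 of 126 tested) and 0.748 in MEF (5 tested).

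The median past-end density relative to the body was higher in MEF in each window from 2 kb on. Over the 2554 genes measured in both libraries the ratio over 10 kb was higher in MEF for 1863 genes (72.9%) and higher in MESC for 679. In the first 2 kb the order was the opposite, with 1083 genes (42.4%) higher in MEF and 1430 higher in MESC. From 2 to 5 kb 1855 genes (72.6%) were higher in MEF, and from 5 to 10 kb 1861 (72.9%). At 8 to 10 kb 1410 (55.2%) were higher in MEF and 739 in MESC, and the other genes were tied. The MEF median over the MESC median was 0.940 in the first 2 kb, 1.37 from 2 to 5 kb, 1.83 from 5 to 10 kb and 1.78 at 8 to 10 kb. Per gene, the log2 of the MESC ratio over the MEF ratio had a median of -0.29 (-0.31 to -0.26) and an SD of 0.60 over genes. The genes kept much of their order between the cell types, with a Spearman rho of 0.78 for the 10-kb ratio across 2554 genes that share their 2 libraries.

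The position of the reads gave the same difference without use of the body density. For the 1806 genes with at least 30 past-end reads in both libraries, the median read lay 2441.5 bp (2350 to 2524.5) past the end in MESC and 3185 bp (3102 to 3266) in MEF, as a median over genes. An even spread over the 10 kb would put it at 5000 bp. The gene's median read lay farther out in MEF for 1543 of the 1806 genes (85.4%), and the median shift was 528.5 bp. A shift of at least 1000 bp was seen outward in MEF for 477 genes (26.4%) and outward in MESC for 40 (2.21%).

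**Figure D2:**
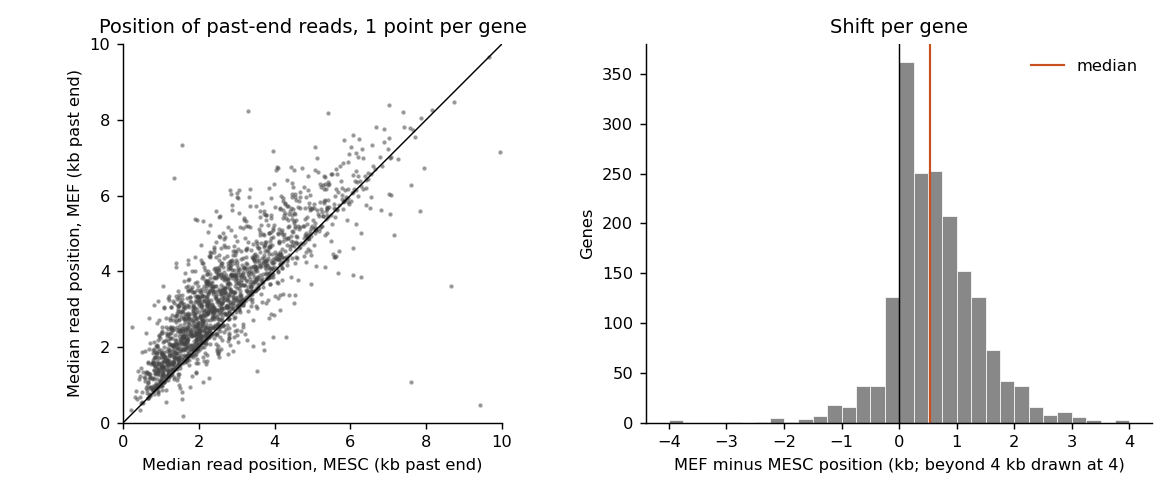
Position of the median past-end read of each of 1806 genes, in kb past the annotated end, in MESC (horizontal axis) and MEF (vertical axis), with the line of equal positions. Most points, 85.4%, lie above the line, where the reads of the gene reach farther in MEF.

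The MESC library mixes reads of 35 and 36 bases, and the MEF reads all have 35, so the MESC reads were split by length as a technical comparison. Over 2199 genes with enough reads in both MESC parts, the log2 of the 35-base over the 36-base ratio had a median of -0.01 and an SD of 0.46. The 5 to 10 kb medians were 0.281 and 0.313. Over 1289 genes the median read lay at 2464.5 bp in the 35-base reads and at 2598 bp in the 36-base reads, against 3245 bp in MEF. The median shift of MEF was 548.5 bp against the 35-base and 461 bp against the 36-base reads, and the shift between the MESC parts was 38 bp. The difference between the cell types was thus present against each MESC part. Whether the MESC parts are separate samples is not given in the sources used here.

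A 2-fold difference of the 10-kb ratio between the cell types, with an interval that excluded 1, was called for 219 of 2554 genes toward MEF (8.57%, 7.52 to 9.73, against a background of 7.97% of all genes). Toward MESC it was called for 23 (0.901%, against 1.51%). Between the MESC read lengths the same rule called 11 and 33 of 2199 genes. The split of calls was uneven, with most of them toward MEF, and the shares were near those of all coding genes.

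The largest differences toward MEF were at 6 genes. Fgfr2, a receptor for fibroblast growth factors, held 26 past-end reads beside 12487 body reads in MESC and 128 beside 6748 in MEF. Its ratios were 0.626 (0.409 to 0.918) and 5.71 (4.75 to 6.80), 9.11 times higher in MEF (5.97 to 13.9). The model used for Fgfr2 spans 3009 kb and 21 other genes on the same strand, so its body density is not that of Fgfr2 alone. With the last 5000 bp of the body as the denominator its ratios were 1.08 and 1.68, and the log2 difference went from -3.19 to -0.64. Whrn, which encodes the scaffold protein whirlin, had 45 past-end reads in MESC and 114 in MEF, of which 89 lay at 5 to 10 kb, and a ratio 6.93 times higher in MEF (4.64 to 10.3). Fmn2, an actin-nucleating formin, had 4 reads and 31 reads, 8.41 times (2.94 to 24). Antisense reads past the Fmn2 end numbered 2 in MESC and 90 in MEF. Mapk1ip1l was at 0.0391 and 0.292, Dpy19l3 at 0.236 and 1.32, and Cntln at 0.416 and 2.20, each higher in MEF with an interval above 1. With the last 5000 bp as the denominator the log2 differences of these 5 genes other than Fgfr2 stayed between -3.25 and -2.32.

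The largest differences toward MESC were at 6 genes, and 4 of these were read on both strands past the end. P4ha2, a collagen prolyl hydroxylase subunit, had 93 past-end reads in MESC, 56 of them in the bin at 8000 to 8500 bp, and 24 reads in MEF. Its ratio was 6.07 times higher in MESC (3.64 to 10.1). Pdss2, an enzyme of coenzyme Q synthesis, had 70 reads in MESC and 6 in MEF, and 40 of the 70 lay at 3000 to 3500 bp. Arl4c, a small GTPase of the ARF family, had 45 and 4, and Pde4dip had 39 and 13. The last 2 kb of Arl4c and Pde4dip held 0 reads in MESC, and the first 2 kb past their ends held 0 and 1. At P4ha2 and Pdss2 the last 2 kb held 6 and 2 reads in MESC, and the first 2 kb past the end 15 and 3. In MESC the opposite strand held 50 reads past P4ha2, 59 past Pdss2, 54 past Arl4c and 124 past Pde4dip. In MEF it held 2, 47, 3 and 218. In MESC the bin with most sense reads lay at 3000 bp or farther from the end in each of these 4 genes. In MEF it began at 2000 bp at P4ha2 (7 reads), 4000 bp at Pdss2 (2 reads), 1500 bp at Arl4c (1 read) and 8500 bp at Pde4dip (4 reads). Counting each position once put the MESC ratio of P4ha2 at 1.65 in place of 2.61. Dhcr7, which catalyses the last step of cholesterol synthesis, had 34 reads in MESC and 5 in MEF, all within the first 2 kb and none antisense, and a ratio 3.8 times higher in MESC (1.45 to 9.97). Dnaja3 had a ratio 3.41 times higher in MESC, but another transcript model of this gene runs 20403 bp beyond the end used here. With the last 5000 bp of the body as the denominator its log2 difference turned from 1.77 to -0.20.

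Several of the ends with the most past-end reads belonged to short genes, although Vmp1, described below, held the most in MEF. Thbs1, the matrix protein thrombospondin 1, held 109 past-end reads in MESC and 3263 in MEF, with body reads of 297 and 9658. Past the AATAAA shown above, the first 3 bins in MEF held 589, 573 and 716 reads. The bin at 1500 to 2000 bp held 151 and the bin at 2000 to 2500 bp 905, and the next bins held 142 and 67. Of the 3263 reads, 8 lay at 5 to 10 kb. The 10-kb ratios were 0.523 (0.416 to 0.654) in MESC and 0.482 (0.463 to 0.501) in MEF. The intervals overlap, although the gene was far more transcribed in MEF. Rpl3, a ribosomal protein gene, held 1725 reads in MESC and 699 in MEF with ratios of 0.385 and 0.373, and 1688 and 638 of them lay in the first 2 kb. Cdkn1a, which encodes the cell cycle inhibitor p21, held 1551 and 544, and its bin at 1500 to 2000 bp was 18.5 times the body in MESC and 17.8 times in MEF. Counting each position once put its 10-kb ratio in MESC at 0.908 in place of 1.65. Another transcript model of Cdkn1a runs 1195 bp past the end used. Rps24 held 1386 and 755, reaching a median read position of 2583 and 1950 bp, and was one of the genes with reads farther out in MESC. Gm6483 held 1787 and 1519.

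**Figure D3:**
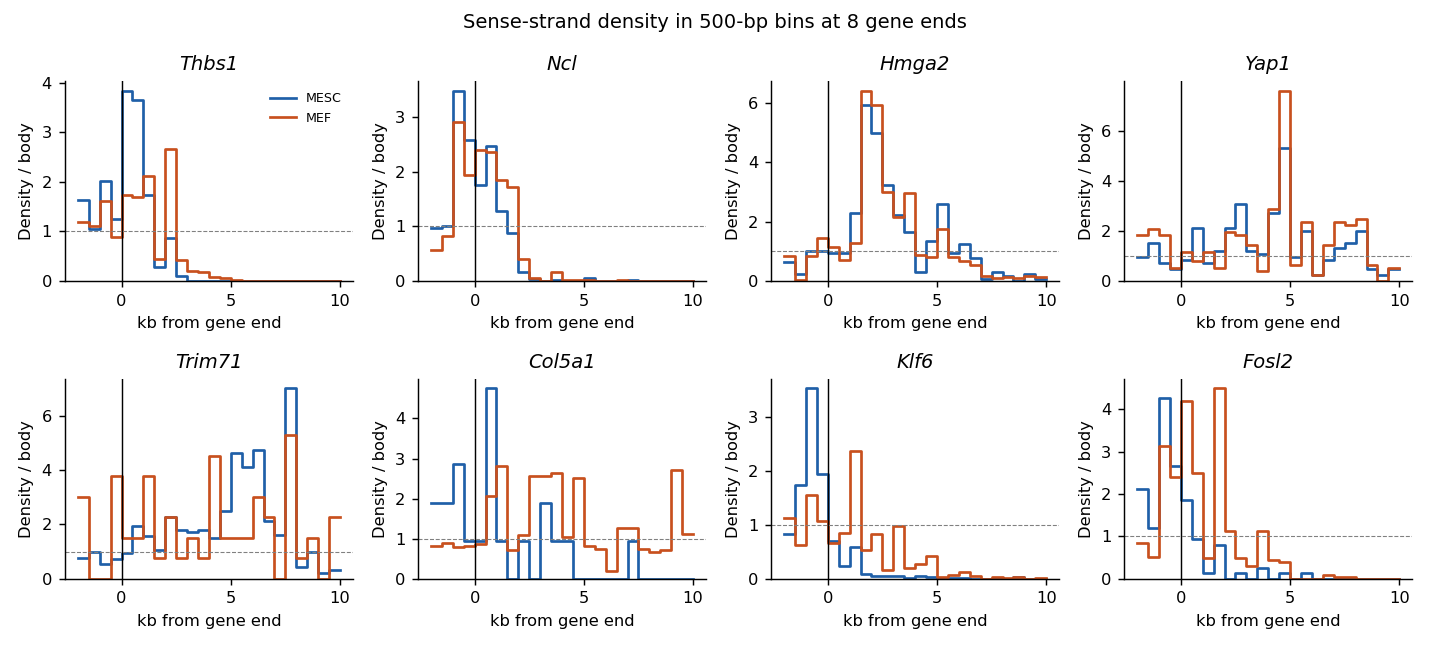
Sense density in 500-bp bins relative to the body (vertical axis, a different scale in each panel; dashed line at 1) from 2 kb before to 10 kb past the annotated end (horizontal axis, kb) at 8 gene ends in MESC and MEF. Thbs1 falls to near 0 within 5 kb of its end in both libraries, whereas Trim71 has its highest bin, 7 times the body in MESC, at 7500 to 8000 bp.

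Other genes were read far past their ends. Trim71, a ubiquitin ligase gene of stem cells, held 778 past-end reads in MESC, of which 99 lay in the first 2 kb, 208 at 2 to 5 kb and 471 at 5 to 10 kb. The bin with 126 reads at 7500 to 8000 bp was followed by one with 8. In MEF, with 49 past-end reads, the highest bin was the same one, with 7 reads. The ratios of Trim71 were 2.16 (1.99 to 2.35) and 1.85 (1.31 to 2.58). Yap1, the transcriptional coactivator of the Hippo pathway, held 257 and 250 reads and ratios of 1.52 and 1.64, with its highest bin at 4500 to 5000 bp in both, 45 and 58 reads. Actn1, the actin crosslinker alpha-actinin, peaked at 4000 to 4500 bp in both, with 76 reads in MESC and 147 in MEF. Hmga2, a chromatin protein of embryonic and mesenchymal cells, peaked at 1500 to 2000 bp in both, with 75 and 145 reads, and had nearly the same ratio, 1.52 (1.36 to 1.69) and 1.49 (1.38 to 1.62). The bin of the maximum was thus the same in both cell types at each of these 4 genes. It differed at Thbs1, at 0 to 500 bp in MESC and 2000 to 2500 bp in MEF, and also at Rpl3, Rps24 and Dlc1. Rif1, a protein of DNA repair and replication timing, held 306 of its 540 reads at 5 to 10 kb in MESC and 52 of 99 in MEF.

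Several of the highest ratios were at very long genes. Cntnap2, a neuronal cell adhesion protein whose gene spans 2241 kb, had the highest ratio in MESC, 12.9 (6.57 to 23.1), from 12 past-end reads and 208 body reads. Dmd, the dystrophin gene of 2257 kb, had ratios of 9.55 (6.24 to 14.0) and 9.21 (5.41 to 14.7) from 27 and 18 reads. Arfip1 had 10.8 and 18.2, Schip1 6.93 and 7.64, Dlc1 7.75 and 5.09, and Pde4b 10.7 and 8.90, and all 4 have another model that runs 333 to 2498 bp past the end used. Lrrc4c had 7.15 (4.49 to 10.9) in MEF from 23 reads, and its 93 body reads in MESC were too few for a ratio there. At Vmp1, an autophagy protein whose model contains the microRNA gene Mir21 in its last 2 kb, 1060 reads in MESC and 4033 in MEF gave ratios of 8.05 (7.42 to 8.74) and 11.3 (10.8 to 11.8). The last 2 kb of Vmp1 already held 264 and 1332 of its 1303 and 3529 body reads. At Sgk1, a serum-induced kinase, the first 500 bp past the end were 72.9 times the body in MESC and 52.5 times in MEF, with 297 and 169 reads. Against the last 5000 bp of the body the ratio of Cntnap2 in MESC was 2.00. The ratios of Dmd were 0.435 in MESC and 3 in MEF, and those of Schip1 2.52 and 2.89. Those of Arfip1 were 1.93 and 1.59, of Vmp1 1.13 and 1.05, of Dlc1 1.21 and 0.989, and of Sgk1 0.619 and 0.497. The log2 difference between the cell types changed sign at Arfip1 and Vmp1, to 0.27 and 0.11, and at Dmd, from 0.05 to -2.78. The models of Arfip1, Vmp1, Dmd and Cntnap2 also contain 5, 2, 4 and 1 other genes on the same strand.

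At 2 genes most past-end reads lay in a single distal bin. At Osbp, the oxysterol-binding protein gene, 855 of the 995 past-end reads in MESC and 385 of 557 in MEF lay in the single bin at 8000 to 8500 bp, against 95 and 96 reads in its first 2 kb. No gene is annotated there. At BC107364, 625 of 643 reads in MESC and 414 of 415 in MEF lay in the last bin, and 1 position alone, 9679 bp past the end, held 365 and 120 of them. The opposite strand past BC107364 held 672 reads in MESC and 782 in MEF. The 10-kb ratios of both genes rest on that bin, and counting each position once put that of Osbp at 2.60 in MESC in place of 9.59, and that of BC107364 at 0.476 in place of 3.58. Sema6d, a semaphorin gene, had its highest bin at 500 to 1000 bp in MEF, 57.2 times the body, from 11 reads.

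At the opposite end, some genes with many body reads had no read past the end. Cdkal1 had 2104 and 1053 body reads and 0 past-end reads in both libraries, which allows a ratio of up to 0.116 in MESC and 0.233 in MEF. Snd1 had 3563 and 2879 body reads with 2 and 0 past-end reads. Srp54b had 1432 and 1269 body reads and 0 in both, and Zfp407 had 1523 and 1161 with 0 and 1. Acvr1, Nfia, Rps6kc1 and Wdr96 had 0 past-end reads in 1 library and 1 or 2 in the other, and Cdh13 had 0 and 8. The last 2 kb of all these genes held 0 or 1 read in each library. At Cdh13, with 0.669 and 0.896 body reads per kb, that was 0.747 and 0.558 of the body density. No gap within Cdh13 is thus shown, and its MEF past-end ratio was 0.893. At the others the last 2 kb were at 0.102 of the body density or lower, so the gap began within the annotated gene. Few reads would fall there at sparse bodies such as Nfia, with 1.12 and 1.97 reads per kb. Other models of Srp54b and Wdr96 run 1262 and 49019 bp past the end used. Gm13235 had 660 body reads in MESC, 10 of them in the last 2 kb, and 0 past the end. Its reads are uncertain because it belongs to a family of near-identical zinc-finger genes, and the same holds for Srp54b, which has near-identical copies. Over all genes tested, the last 2 kb held under 0.25 of the body density in 232 genes in MESC (7.09%) and 211 in MEF (7.48%). Of the 39 genes with no past-end read in MESC, 31 were among these, and 26 of 32 in MEF. The median 10-kb ratio of the low-end genes was 0.331 in MESC against 1.02 in the others, and 0.803 against 1.27 in MEF. In 129 and 63 genes the past-end stretch had more antisense than sense reads.

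The genes of 12 lists were then compared, beginning with the factors that form the 3′ end. Of 25 cleavage and polyadenylation genes, 6 had isolated ends and all 6 were measured in both libraries, with median 10-kb ratios of 1.43 in MESC and 1.64 in MEF. Of these 6, 5 had the higher ratio in MEF, none was called at 2-fold, and 1 was called denser in the first 2 kb in MESC and 2 in MEF. Over all 2554 genes measured in both, 72.9% were higher in MEF. Denser first 2 kb were called for 40.3% and 36.9% of all isolated ends tested. Cpsf6, a subunit of cleavage factor I, held 816 past-end reads in MESC and 486 in MEF, with 333 and 290 at 5 to 10 kb, and ratios of 2.53 (2.30 to 2.77) and 3.76 (3.29 to 4.30). Papola, the poly(A) polymerase, held 226 of 375 and 134 of 221 past-end reads at 5 to 10 kb, with ratios of 1.76 and 1.93. Pabpc1, the cytoplasmic poly(A)-binding protein, had 1.11 and 0.876. Of 16 termination genes, 5 had isolated ends, with medians of 1.10 and 1.06. Of the 5, 4 were higher in MESC, beside 679 of all 2554 genes. Scaf8, a protein that binds the polymerase tail, had 1.10 and 1.07, and Aqr, an RNA helicase, 1.2 and 1.11.

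None of the bodies measured for these factors differed 4-fold between the cell types. All 25 cleavage and polyadenylation genes were measured, with a median log2 MESC over MEF of 0.51 and a range from -0.35 to 1.03. At 2-fold 1 of them was higher in MESC and 0 in MEF. The 15 termination genes with enough reads were at a median of 0.83, in a range from -0.35 to 1.36. At 2-fold 4 of the 15 were higher in MESC and 0 in MEF. The 2-fold share over all 10426 bodies is not given here, so the 2-fold counts of these lists cannot be set against it. Xrn2, the torpedo exonuclease, had 676 body reads in MESC and 555 in MEF, an RPKM of 1.23 and 1.32. The 24 elongation factor genes were at a median of 0.42 and the 11 Integrator genes at 0.64, all within 4-fold. The median over all 10426 bodies was 0.28. A 4-fold difference of body density was called in 388 of 4334 genes with isolated ends toward MESC (8.95%, against 7.47% of all genes) and in 348 toward MEF (8.03%, against 5.51%).

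The median gene was at 0.983 in MESC and 1.24 in MEF, and the medians of the cleavage, termination, elongation and Integrator lists lay above it in MESC and on both sides of it in MEF. Of 25 elongation factor genes 7 were measured, with medians of 1.29 in MESC and 1.01 in MEF. Cdk12, a kinase of the polymerase tail, had 2.08 (1.84 to 2.35) and 2.52 (2.14 to 2.95), and another model of it runs 26940 bp on. Cdk13, its paralogue, had 1.10 and 0.999, with 191 and 116 antisense reads beside 154 and 94 sense reads. Cdc73, a subunit of the PAF complex, was lower, at 0.286 and 0.395. All 4 Integrator genes measured had the higher ratio in MEF, beside 72.9% of all 2554 genes, with medians of 1.18 and 1.41. Ints7 had 1.04 and 1.29, Ints9 0.825 and 1.18, and Ints10 1.32 and 1.53, with overlapping intervals in each.

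Of the chromatin regulators, all 18 with isolated ends were measured, with medians of 1.22 in MESC and 1.47 in MEF, and 13 and 12 of them were called denser in the first 2 kb, beside 40.3% and 36.9% of all isolated ends tested. The ratio was higher in MEF for 14 of the 18, beside 72.9% of all 2554 genes. At 2-fold 1 was called toward MEF, beside 8.57%. Ehmt1, a histone H3 lysine 9 methyltransferase, had 1.07 (0.903 to 1.26) and 1.44 (1.2 to 1.72). Chd7, a chromatin remodeller, had 1.18 (0.986 to 1.39) and 2.07 (1.52 to 2.78), 1.76 times higher in MEF (1.26 to 2.47). Against the last 5000 bp of the body its log2 difference went from -0.82 to -1.40.

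Of 34 pluripotency genes, 17 had isolated ends, and 15 were measured in MESC and 4 in MEF. The MESC median was 0.829, in a range from 0.183 to 2.18. Denser first 2 kb were called in 5 of the 15, beside 40.3% of all isolated ends tested. Tdgf1, a Nodal co-receptor, had 709 past-end reads and a ratio of 0.384 (0.349 to 0.423), and Nanog 126 reads and 0.478 (0.376 to 0.607). Zfp42, a marker of undifferentiated cells, had 329 reads, 123 of them at 5 to 10 kb, and 1.55 (1.31 to 1.84). Esrrb, a nuclear receptor gene, had 2.18 (1.56 to 2.98) from 45 reads, and 0.833 against the last 5000 bp of its body. In MEF the ends of Tdgf1, Nanog and Esrrb held 0 reads and that of Zfp42 held 1. Tet1, a methylcytosine dioxygenase, was measured in both, at 0.817 and 1.03 with overlapping intervals.

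Of 42 genes of the fibroblast and its matrix, 30 had isolated ends, 15 were measured in MESC and 28 in MEF, with medians of 0.652 and 1.00. Of the 15 measured in both, 13 were higher in MEF, beside 72.9% of all 2554 genes. At 2-fold 1 was called toward MEF, beside 8.57%. This was Col5a1, a chain of type V collagen, with 13 past-end reads and a ratio of 0.618 (0.325 to 1.07) in MESC and 776 reads and 1.46 (1.35 to 1.57) in MEF, 2.36 times higher (1.35 to 4.13). Col1a2, a chain of type I collagen, had 27 and 855 reads and ratios of 0.599 and 0.744, and its highest MEF bin was at 1000 to 1500 bp, 6.42 times the body. Counting each position once put its MEF ratio at 0.517 and turned its log2 difference from -0.31 to 0.30. Fbn1, the microfibril protein fibrillin, had 1.19 and 1.2, and Twist2, a mesenchymal transcription factor, 1.22 and 1.73. In MEF, where the other markers were read, Col3a1 had 1.04, Thbs2 0.984, Postn 0.716 and Thy1 0.548. In MESC reads of these genes cannot be told apart from reads of feeder cells.

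Of 30 immediate early and stress genes, 7 were measured in both libraries, with medians of 0.720 in MESC and 0.654 in MEF. Of these 7, 2 were called, both toward MEF, beside 8.57% of all 2554 genes measured in both. Klf6, a growth-responsive zinc-finger factor, had nearly the same body reads in both libraries, 879 and 906, but 110 past-end reads in MESC and 439 in MEF. The ratios of Klf6 were 0.0989 (0.0804 to 0.121) and 0.383 (0.341 to 0.430), 3.87 times higher in MEF (3.08 to 4.87). Its MEF reads were highest at 1000 to 1500 bp, 135 against 33 in MESC, and the annotated end has neither hexamer. In MESC the reads of Klf6 were highest before the annotated end, with 196 in the bin from 1000 to 500 bp before it, against 89 in MEF. Fosl2, a subunit of AP-1, had 33 and 486 reads, and its ratios of 0.220 (0.148 to 0.315) and 0.786 (0.706 to 0.873) differed 3.58-fold (2.46 to 5.20). The MEF reads of Fosl2 had 2 high stretches, 130 reads in the first bin and 139 at 1500 to 2000 bp, while MESC held 14 and 6 there. Hspa4, a heat shock protein of the HSP110 family, had 0.826 and 1.28.

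Of the lists, ribosomal and translation genes had the lowest median 10-kb ratios in both libraries. The 5 measured had medians of 0.385 in MESC and 0.452 in MEF, and their medians at 5 to 10 kb were 0.0371 and 0.0392. Ncl, the nucleolar protein nucleolin, had 0.335 and 0.452, with 652 of 684 and 396 of 430 reads in the first 2 kb. Eif4g2, a translation initiation factor gene, had 1815 and 1218 body reads and 62 and 60 past-end reads, for ratios of 0.0480 (0.0366 to 0.0618) and 0.0692 (0.0525 to 0.0897). The contractile list had medians of 1.24 (6 genes) and 1.07 (7 genes), with Tpm1, a tropomyosin, at 0.734 and 0.756. Of 9 cell cycle genes measured in both, 6 were higher in MESC, beside 679 of all 2554 genes. Among these 6 were Cdk1 at 1.18 and 0.911, Cdk6 at 1.97 and 1.52 and Cenpf at 0.728 and 0.562. Of 15 genes of TGF-beta and growth factor signalling measured in both, 12 were higher in MEF, beside 72.9% of all 2554 genes. Toward MEF 3 were called, beside 8.57% of all 2554. Fgfr2 is 1 of the 3, and its log2 difference was -0.64 against the last 5000 bp of the body. Igf1r, the receptor of insulin-like growth factor, had 1.12 and 1.09.

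The distal density varied with gene length. The genes were put into 4 groups of equal size by length. The 5 to 10 kb median in MESC was 0.120 in the shortest group (median 15787 bp), 0.253 and 0.447 in the next groups and 0.347 in the longest. In MEF the same medians were 0.209, 0.491, 0.833 and 0.789. The first 2 kb showed no such order, with MESC medians of 1.73, 1.89, 1.79 and 1.59 and MEF medians of 1.71, 1.76, 1.66 and 1.53. In 4 such groups by body density, the densest had the lowest 5 to 10 kb median, 0.154 in MESC and 0.283 in MEF, against 0.355 and 0.769 in the sparsest. Across genes, Spearman's rho between length and the 5 to 10 kb ratio was 0.19 in MESC (3274 genes) and 0.31 in MEF (2822 genes). Between body density and that ratio it was -0.12 and -0.22. These are weak relations across genes that share a library. The body is the denominator of the ratio, and its part in them was not tested.

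**Figure D4:**
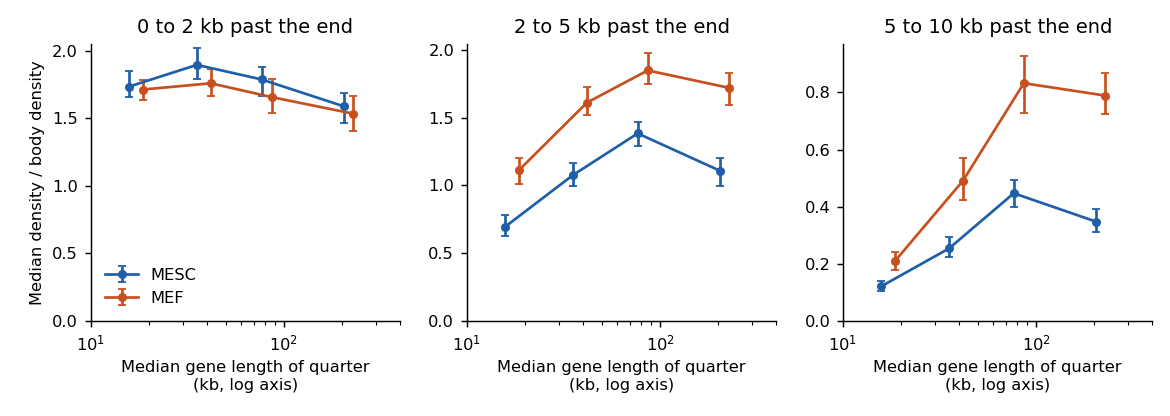
Median density relative to the body, with 95% intervals (vertical axis, a different scale in each panel), against the median gene length of each of 4 length groups (horizontal log axis, kb) for 0 to 2, 2 to 5 and 5 to 10 kb past the end in MESC and MEF. The 5 to 10 kb medians are lowest in the shortest group, 0.120 and 0.209, whereas the first 2 kb medians stay between 1.53 and 1.89.

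Ends with a hexamer had denser first 2 kb and sparser distal stretches than ends without one. In MESC the first 2 kb median was 1.82 (1.75 to 1.91) at AATAAA ends, 1.88 (1.76 to 1.99) at ATTAAA ends and 1.5 (1.42 to 1.60) at ends with neither. In MEF these were 1.75, 1.74 and 1.42. From 5 to 10 kb the order turned, with 0.234, 0.245 and 0.387 in MESC and 0.452, 0.490 and 0.737 in MEF. Denser first 2 kb were called for 42.7%, 44.1% and 32.8% of these genes in MESC and for 39.1%, 39.6% and 29.9% in MEF. A match describes the annotated end and does not show that the site is used. Genes with a GC-poor past-end stretch had the higher 5 to 10 kb median, 0.416 in the lowest of 4 GC groups against 0.178 in the highest in MESC, and 0.807 against 0.336 in MEF.

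Beyond the 10 kb window, reads were followed at genes with no other gene within 50 kb past the end, of which 1149 had at least 100 body reads in MESC and 1038 in MEF. In steps of 5 kb from the end, the median ratio to the body in MESC was 1.47, 0.298, 0.0736, 0.0304 and 0.0175. In MEF it was 1.65, 0.618, 0.115, 0.0437 and 0.00989. The MEF median was the higher one up to 20 kb. At 15 to 20 kb the intervals overlapped, 0.0256 to 0.0388 in MESC and 0.0318 to 0.0558 in MEF. They also overlapped at 20 to 25 kb, 0.0112 to 0.0223 in MESC and 0 to 0.0199 in MEF. Both libraries had a median of 0.2 reads per kb in each of these steps, so the order of the ratios from 15 kb on is not settled. The summed ratios at 20 to 25 kb were 0.0730 and 0.0737, and 18.9% and 23.8% of genes were above the intergenic level. Reads above the intergenic level were present in 39.3% of these genes in MESC and 51.8% in MEF at 10 to 15 kb, and in 10.4% and 9.92% at 45 to 50 kb. The intergenic level was lower in MEF, so fewer reads were enough there and these shares do not rest on the same cut-off.

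**Figure D5:**
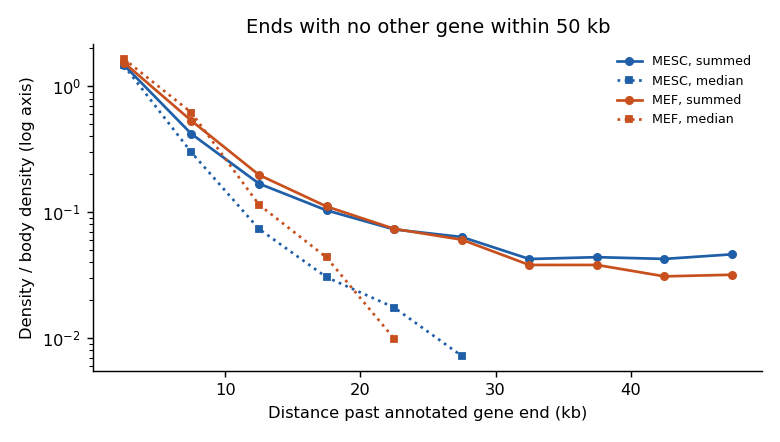
Density relative to the body (vertical log axis) in 5-kb steps from 0 to 50 kb past the end (horizontal axis, kb) for the 1149 genes of MESC and 1038 of MEF with no other gene in that stretch, as the median over genes (dotted) and summed over genes (solid). The MEF median lies above the MESC median up to 20 kb, at 0.618 against 0.298 for 5 to 10 kb, with overlapping intervals at 15 to 20 kb. Medians of 0 are not drawn on the log axis.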

How the data were processed

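The deposited files list 1 aligned read per line, with its place, strand, bases and a constant value of 1, so their unit is a read count, which the authors left without normalization. The series design text names Eland and mm9 for the alignment and a removal of reads similar to rRNA. Pooling of the libraries is stated per the file headers. The sources used here do not give the Eland version or how duplicates and multiple matches were treated. A check of 1 read in 400 against the NCBIM37 assembly (mm9) took the listed place as the 5′ end, and 93.1% of MESC and 95.6% of MEF reads matched with up to 2 mismatches.

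Gene ends were those of the longest transcript in the GENCODE annotation of that assembly. Counting and intervals used Python 3.11.15, numpy 2.4.6, scipy 1.17.1 and pandas 2.3.3. The ratios, the 2-fold calls and the intervals were tested on simulated counts, and the counting of reads was not tested on simulated reads. A test across replicates could not be made, and no p-value was computed. Single-gene ratios have exact conditional Clopper-Pearson 95% intervals. A gene counted as read at 8 to 10 kb when the lower exact Poisson bound exceeded the intergenic density. For the ratio of ratios, 3 reads stood for any lower count in a window, and bodies were compared with at least 50 reads in 1 library.

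Named are, per library, the 6 highest and 6 lowest 10-kb ratios and the 4 highest single bins among genes with at least 200 body reads, and the 4 genes with most past-end reads. Also named are the 6 largest differences in each direction with at least 30 past-end reads in the higher library, up to 3 members of each of 12 lists by body reads, and the marker genes. A few genes this rule names are not reported here. The lists held 355 genes, of which 3 were placed by synonym and 2 were unmatched. The genes and lists were chosen with earlier results of these data known. Alternatives covered the gene end, isolation, body, read minimum, duplicates, depth, read length, background, antisense reads, assembly gaps and scaling.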

Additional observations from a re-analysis of the deposited data

How the results depend on the processing

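Over 18 alternatives, 176 of 216 comparisons of 14 main values stayed within the interval or 1.5 times the count, 40 moved and 0 reversed. Of 3116 comparisons of 230 other values 2882 stayed, 233 moved and 1 reversed, the log2 difference of Dnaja3, at -0.20 with the last 5000 bp of the body as the denominator. A reversal was counted for single genes only where the difference had been called at 2-fold, and sign changes at genes not called are among those that moved or stayed. The causes were not tested except where genes or reads were added or removed. The median log2 difference between the cell types stayed negative under every alternative run.

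With neighbours counted on the sense strand alone (12263 genes), the median 10-kb ratios were 0.927 in MESC and 1.18 in MEF, denser first 2 kb were called in 2303 and 1800 genes, 45 and 371 ratios were called higher in MESC and MEF, and 595 bodies in MESC. With at least 50 body reads the medians were 0.932 and 1.2 and the shares still read at 8 to 10 kb 38.9% and 52.5%. With at least 400 they were 1.10 and 1.38, 53.1% and 69.9%, the highest MEF bin median was 1.69, denser calls were 562 and 363, calls between the cell types 4 and 67, and the position shift 652 bp. Without another gene in 20 kb 142 ratios were called higher in MEF. A body from 3000 bp on gave a MEF median of 1.29 and a median log2 difference of -0.32. The last 5000 bp of the body gave a highest MESC bin median of 1.58 and a median log2 difference of -0.37. Each position counted once gave a MEF median of 1.21. MESC thinned to the MEF total had reads above its own intergenic level at 8 to 10 kb in 38.9% of genes. The 36-base MESC reads gave 1.02, 1.59, 45% and a shift of 486 bp, and the 35-base reads 256 bodies higher in MESC. Subtracting the intergenic density gave 39 ratios higher in MESC.

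Both of the following were chosen after seeing the data. Leaving out genes with overlapped bodies left 13 ratios higher in MESC. Leaving out genes whose last 2 kb held under 0.25 of the body gave medians of 1.02 in MESC, highest bin medians of 1.77 and 1.69, and 44.8% and 59.5% of genes read at 8 to 10 kb.

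No paired analysis was possible because within a pooled file no read is tied to a sample, so leaving out replicates and the replicate block were not run. The repeat filter was not run because the reference used here does not mark repeats. Depth limits the distal bins, where most genes hold few reads, and genes under 100 body reads were not measured.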

Other observations

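The strands were compared at the genes with no other gene within 50 kb past the end. Mean density in the first 5 kb was 14.5 sense reads per kb in MESC and 13.9 in MEF, against 0.371 and 0.173 antisense. At 40 to 45 kb it was 0.416 and 0.277 sense against 0.349 and 0.187 antisense. At 45 to 50 kb it was 0.452 and 0.286 sense against 0.457 and 0.481 antisense. The MEF antisense value of the last step stood above those from 30 to 45 kb, which lay between 0.157 and 0.187. The intergenic level was 0.187 reads per kb in MESC and 0.110 in MEF on each strand.

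Promoter-proximal density over body density was set beside the distal reads past the end. In 4 groups of equal size by this pausing index, over 1187 genes in MESC and 704 in MEF, the 5 to 10 kb median was 0.138 in the lowest group and 0.337 in the highest in MESC, and 0.267 and 0.766 in MEF. Spearman's rho across these genes was 0.17 and 0.22. Both quantities are divided by the body density, and the part of this shared denominator in the relation was not tested.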
